A study of Mus musculus with 4 samples.

Results

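The amino acid transporter genes described here are 9 genes for neutral and cationic amino acid carriers of the plasma membrane, Slc7a8, Slc7a5, Slc3a2, Slc1a5, Slc1a4, Slc7a6, Slc7a1, Slc38a1 and Slc38a2. They were found by gene name among 22554 rows of the deposited count table, and all 9 passed the filter on low counts that left 17650 genes to test. The list was chosen by function and with results of the comparison below already known. The 5D and vehicle values of the 9 genes are thus the values they were selected on, and they are given as a description. Test results and intervals printed for these genes describe them as well and are not evidence about the list. RNA was sequenced from ILC2s (group 2 innate lymphoid cells) sorted from the lungs of 6-week-old wild-type BALB/c mice, cultured, overnight by the labels, with the survival cytokines IL-2 and IL-7 and with the activating cytokine IL-33. The culture held either vehicle or compound 5D, a small molecule inhibitor of the Orai family, the plasma membrane pores that let calcium in after the endoplasmic reticulum has released its own. There were 2 libraries per group, and the comparison asks how the transcriptome of activated ILC2s differs when calcium entry is blocked. The dose of 5D and the number of mice per library are not given by the labels.

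Amino acid transporters supply dividing and cytokine-secreting lymphocytes with the leucine, glutamine and other amino acids that protein synthesis needs, and their abundance usually climbs when lymphocytes are activated. Several of them work as pairs. Slc3a2 encodes the CD98 (4F2) heavy chain, a single-pass glycoprotein that carries light chains such as LAT1 (Slc7a5), LAT2 (Slc7a8) and y+LAT2 (Slc7a6) to the membrane, where the light chain moves the amino acid. LAT1 and LAT2 exchange large neutral amino acids, often leucine entering for glutamine leaving. They work beside carriers of glutamine or small neutral amino acids, here ASCT2 (Slc1a5), ASCT1 (Slc1a4), SNAT1 (Slc38a1) and SNAT2 (Slc38a2). CAT1 (Slc7a1) works alone and brings in arginine and lysine. Leucine and arginine are among the amino acids that mTORC1, the kinase complex that drives growth, senses on the lysosome.

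The 4 libraries held 20096513 to 28697196 counts on genes, with the vehicle libraries shallower than the 5D libraries. All 12 ILC2 markers, among them Gata3, Il1rl1 and Rora, had counts in all 4 libraries, and their summed level was 10849 to 11039 CPM (counts scaled to a common library size) with vehicle and 10184 to 10625 CPM with 5D. At an unadjusted p under 0.05, 4 of them were lower with 5D (Il2ra, Il5, Klrg1 and Thy1) and 1 was higher (Il1rl1), and 0 passed at an adjusted p in edgeR's test. The log2 fold change of Il2ra, a chain of the IL-2 receptor, was -0.23 and that of Il5 was -0.084. Of 33 markers of other cells, 26 were in the table used here and 4 of these, Cd4, Krt8, Scgb1a1 and Col3a1, were at 0 in all libraries. Others were expressed, and 8 of the 26 had a mean of at least 1 CPM. The mean levels with vehicle and with 5D were 63.8 and 58.2 CPM for Kit and 25.8 and 26.6 CPM for Epcam. They were 21.9 and 23.5 CPM for Cd3g and 22.5 and 17.8 CPM for Pecam1. The summed level of the 26 was 153 and 142 CPM with vehicle and 140 and 140 CPM with 5D, so it lay slightly lower in the 5D libraries. The cell types differed in direction. The T cell sum was 26.1 and 25.6 CPM with vehicle and 27.2 and 27.7 CPM with 5D. The stromal and endothelial sum was 23.9 and 21.3 CPM with vehicle and 19.9 and 15.7 CPM with 5D. In that group Pecam1 was lower (edgeR unadjusted p = 0.0392, adjusted p = 0.642). The sums of the other cell types overlapped between groups. The part of either marker list in the results below was not tested. In RNA from a bulk culture, fewer cells that express a gene and less of its RNA per cell cannot be told apart.

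The start of a gene carries the letters that transcription factors read, so the windows of 3 of the transporters are shown. Slc7a8 and Slc3a2 are shown as the members with the lowest 5D to vehicle ratio, and Slc1a4 as the member whose window held a C/EBP-ATF element, the amino acid response element that ATF4 binds. Each window runs 5′ to 3′ on the strand of the gene from 180 bases before to 20 bases after the RefSeq start on GRCm38.p6, the assembly that mm10 holds, and capitals mark motif matches. The windows are chr14:54781867-54782066 on the minus strand for Slc7a8, chr19:8713878-8714077 on the minus strand for Slc3a2 and chr11:20332694-20332893 on the minus strand for Slc1a4. The Slc3a2 window lies inside the annotated span of its gene, 8706882 to 8723369, so it shows an internal start and not the outermost one. The Slc7a8 window reaches past the end of its gene's annotated span, 54781946, but its start also lies inside that span.
Slc7a8: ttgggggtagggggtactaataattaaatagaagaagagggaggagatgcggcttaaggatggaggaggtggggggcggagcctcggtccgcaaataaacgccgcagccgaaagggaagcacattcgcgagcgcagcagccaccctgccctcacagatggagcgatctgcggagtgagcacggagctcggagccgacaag
Slc3a2: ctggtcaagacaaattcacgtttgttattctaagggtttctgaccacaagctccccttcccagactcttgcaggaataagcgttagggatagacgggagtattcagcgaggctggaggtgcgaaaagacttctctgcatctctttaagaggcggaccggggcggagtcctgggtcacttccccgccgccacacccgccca
Slc1a4: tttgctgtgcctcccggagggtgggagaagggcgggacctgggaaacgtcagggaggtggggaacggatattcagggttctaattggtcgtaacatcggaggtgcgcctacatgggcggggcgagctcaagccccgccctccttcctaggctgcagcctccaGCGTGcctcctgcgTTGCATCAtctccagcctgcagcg

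Motifs were searched on both strands of longer RefSeq windows of 300 bases, which existed for 6 of the 9 members in 8 windows, namely Slc7a8, Slc3a2, Slc1a4, Slc7a6, Slc7a1 and Slc38a2. The C/EBP-ATF element TGATGCAA was in 0.895% of 32851 mouse windows and in 1 of the 8 member windows, that of Slc1a4, at position -4 from the start site. The core GCGTG, read by the aryl hydrocarbon receptor with its partner Arnt, was in 32.4% of all windows and in 5 of the 8 member windows. These belong to 4 of the 6 members with a window, Slc7a1, Slc7a6, Slc1a4 and Slc38a2. The Slc7a1 window with this core, from 148392766 to 148393065, lies inside the annotated span of that gene, at an internal start. The E-box CACGTG, which MYC and related factors bind, was in 7.15% of all windows, and the NFAT core TGGAAA, named for the calcium-dependent NFAT factors, was in 21.4%. Neither was in a member's window. None of these motifs contains another. Only these exact letters were searched, so variant elements, elements outside the windows and those of members without a window would be missed.

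Among the CD98 light chains of the list, Slc7a8 was lower in both 5D libraries. Slc7a11, a light chain outside the list, was also lower in both, at 3.50 and 3.78 CPM against 5.38 and 4.65 with vehicle. Its log2 fold change was -0.46 (SE 0.24). Slc7a7, also outside the list, overlapped between the groups. Slc7a8 (LAT2, ENSMUSG00000022180.7, minus strand of chromosome 14 from 54722209 to 54781946 on mm10) had 1076 and 1083 normalized CPM in the vehicle libraries and 887 and 883 CPM in the 5D libraries, from 21667 to 25258 counts. The replicates of a group lay close together, with ranges of 6.67 CPM for vehicle and 3.53 CPM for 5D, while the gap between the groups was 189 CPM. This gave a log2 fold change of -0.29 (SE 0.036, n = 2 per group), a difference of -18% in mean level. On the log2 scale the replicates were 0.0089 apart with vehicle and 0.0058 apart with 5D, less than the counting error of 0.013 in each group.

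Slc7a5 (LAT1, ENSMUSG00000040010.10, minus strand of chromosome 8 from 121881150 to 121907694) transports many of the same amino acids as LAT2. It had 515 and 534 CPM with vehicle and 522 and 534 CPM with 5D. The groups overlapped. Its log2 fold change was 0.0098 (SE 0.042), with a 95% interval from -0.083 to 0.10, and it turned negative without vehicle replicate 1 (-0.019) and without 5D replicate 2.

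Slc7a6 (y+LAT2, ENSMUSG00000031904.5, plus strand of chromosome 8 from 106168857 to 106198706) exchanges cationic for neutral amino acids. It had 51.0 and 51.7 CPM with vehicle and 51.7 and 43.9 CPM with 5D. One 5D library lay within the vehicle values and the other below them. The log2 fold change of -0.10 (SE 0.099) rested on 5D replicate 2, without which it was 0.0073.

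The heavy chain Slc3a2 (ENSMUSG00000010095.13, minus strand of chromosome 19 from 8706882 to 8723369) had 756 and 789 CPM with vehicle and 697 and 680 CPM with 5D. The 5D libraries were both lower, with a gap of 59.1 CPM against a range of 33 CPM between the vehicle libraries. Slc3a2 had a log2 fold change of -0.17 (SE 0.041), a difference of -10.9% in mean level. Its longest transcript holds stretches of up to 182 nt that are at least 95% identical to transcripts of 128 other genes, so some of its reads may have been shared out. No such stretch of at least 150 nt was found in the longest transcripts of the other 8 members, and shorter transcripts were not searched. No member's exons overlapped those of another gene.

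**Figure D1:**
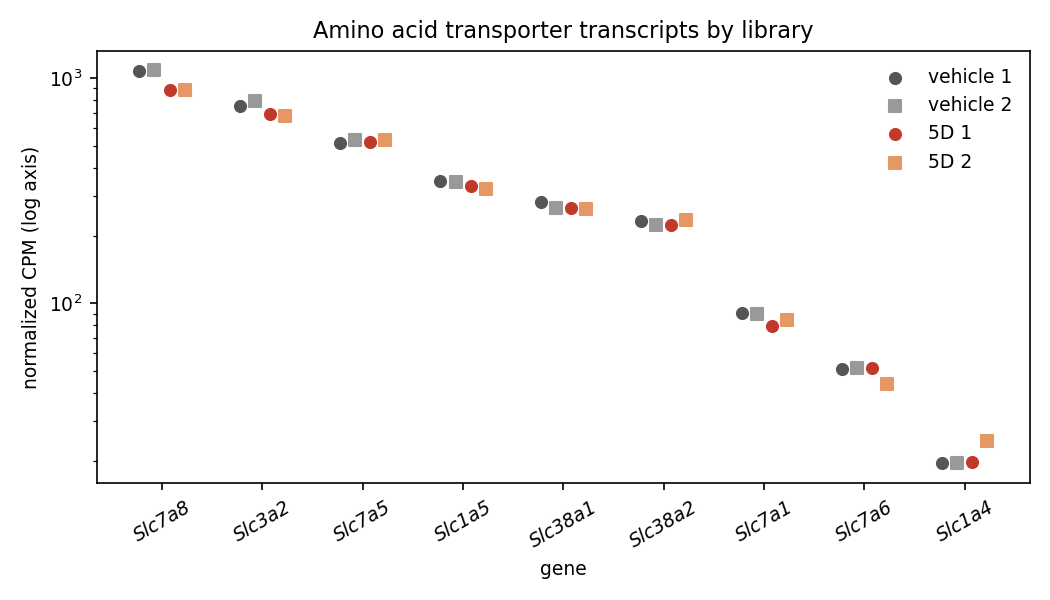
Normalized CPM on a log axis for each of the 9 transporter genes, with 1 point per library (2 vehicle, 2 5D). Slc7a8 sits at 1076 and 1083 CPM with vehicle and at 887 and 883 CPM with 5D, while the 4 points of Slc7a5 lie between 515 and 534 CPM.

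Of the carriers of glutamine or small neutral amino acids, Slc1a5 was lower in both 5D libraries. Slc38a1 and Slc38a2 overlapped between groups, and Slc1a4 was higher, mainly in 1 library. Slc1a5 (ASCT2, ENSMUSG00000001918.17, plus strand of chromosome 7 from 16781340 to 16798274) had 348 and 344 CPM with vehicle and 331 and 320 CPM with 5D. Both 5D libraries were lower, by a gap of 13.8 CPM. The log2 fold change was -0.088 (SE 0.046), a difference of -5.94% in mean level. Slc38a1 (SNAT1, ENSMUSG00000023169.15, minus strand of chromosome 15 from 96571418 to 96642913) had 282 and 265 CPM with vehicle and 265 and 261 CPM with 5D, which overlapped by 0.021 CPM, and its log2 fold change was -0.056 (SE 0.051).

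Slc38a2 (SNAT2, ENSMUSG00000022462.7, minus strand of chromosome 15 from 96687392 to 96699730) lies 44478 nt from Slc38a1. SNAT2 is best known as the carrier that amino acid starvation induces. It had 232 and 222 CPM with vehicle and 223 and 233 CPM with 5D, and the groups overlapped, with one 5D library above both vehicle libraries. The log2 fold change was 0.0084 (SE 0.053) with a 95% interval from -0.11 to 0.12, and its sign turned without vehicle replicate 2 (-0.026) and without 5D replicate 2.

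Slc1a4 (ASCT1, ENSMUSG00000020142.12, minus strand of chromosome 11 from 20302180 to 20332713), a carrier of serine and alanine, was the member with the fewest counts, 389 to 699 per library. It had 19.5 and 19.4 CPM with vehicle and 19.6 and 24.4 CPM with 5D. Both 5D libraries lay above the vehicle libraries, 5D replicate 1 by only 0.093 CPM. The log2 fold change of 0.18 (SE 0.14) was 0.32 without 5D replicate 1 and 0.0088 without 5D replicate 2, so it rested on that library.

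Slc7a1 (CAT1, ENSMUSG00000041313.14, minus strand of chromosome 5 from 148327410 to 148399904) is the cationic carrier of the list. It had 90.1 and 90.0 CPM with vehicle and 79.1 and 84.4 CPM with 5D. The 5D libraries were lower by a gap of 5.65 CPM, about as wide as their own range of 5.28 CPM. For Slc7a1 the log2 fold change was -0.14 (SE 0.071), a difference of -9.21% in mean level.

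Of the 9 transporters, 6 had a negative and 3 a positive log2 fold change. The median was -0.088, beside -0.0016 over all genes tested, and it was -0.046 without 5D replicate 2. In 4 transporters both 5D values were under both vehicle values (Slc7a8, Slc3a2, Slc7a1 and Slc1a5), against 18.8% of all genes tested, and in 1 (Slc1a4) they were above them, against 18.7%. At an unadjusted p under 0.05 in edgeR's quasi-likelihood test, 2 transporters (Slc7a8 and Slc3a2) counted as lower, against 3.84% of all genes, and 0 as higher, against 3.5%. At a Benjamini-Hochberg adjusted p under 0.05, 1 transporter (Slc7a8) counted as lower, against 0.068% of all genes, and 0 as higher, against 0.0283%. Slc3a2 counted as well with DESeq2's Wald test and without vehicle replicate 1. Since the genes were selected on this comparison, these counts describe the list and are not evidence about it. Together the transporters held 0.337% and 0.338% of all counts with vehicle and 0.310% and 0.305% with 5D. Their summed level was 3369 and 3398 CPM with vehicle and 3076 and 3065 CPM with 5D, and without Slc7a8 it was 2293 and 2315 CPM with vehicle and 2189 and 2182 CPM with 5D.

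**Figure D2:**
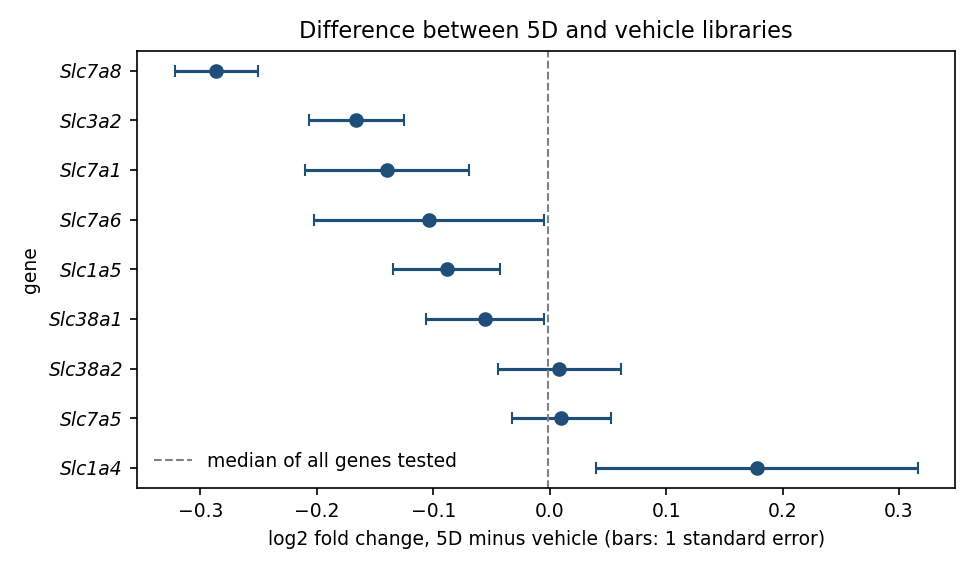
Log2 fold change of 5D minus vehicle for each transporter, with bars of 1 standard error from the edgeR fit (2 libraries per group) and a dashed line at the median of all genes tested. Slc7a8 lies at -0.29 and Slc3a2 at -0.17, Slc38a2 and Slc7a5 lie near 0, and Slc1a4 at 0.18 has the widest bar.

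To compare levels between genes, CPM was divided by the length of each gene's merged exons in kb. On this scale the heavy chain Slc3a2 led with a mean level of 207 CPM per kb over the 4 libraries (193 to 223), followed by Slc7a8 with 196 (176 to 216), and the ranges of these neighbours overlapped. Slc7a5 came next with 142 CPM per kb (139 to 144) and Slc1a5 with 80.5 (76.8 to 83.3). Below them came Slc38a2 with 25.8 CPM per kb, Slc38a1 with 15.6, Slc7a6 with 10.9, Slc7a1 with 7.45 and Slc1a4 with 5.29. Apart from Slc3a2 and Slc7a8, no neighbours in this order had overlapping ranges over the 4 libraries. The order was the same when the longest coding transcript gave the length, an alternative chosen after seeing the data. Among the 270 solute carrier (Slc) genes of the table, Slc7a8 ranked 2 and Slc3a2 ranked 3 by mean CPM, not corrected for length.

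Ratios within a library do not depend on how the libraries were scaled. Slc7a8 transcripts outnumbered those of Slc7a5 per kb by 1.55 and 1.5 to 1 with vehicle, and by 1.26 and 1.23 to 1 with 5D. The ratio was lower in both 5D libraries (1.24 ± 0.023, SD) than in both vehicle libraries (1.52 ± 0.031). Among the light chains known to pair with CD98, Slc7a8 made up 58.7% and 58.1% of the summed level per kb with vehicle and 53.7% and 53.4% with 5D. The sum also held Slc7a5, Slc7a6, Slc7a7 and Slc7a11, and the last pair stayed at or below 0.47 CPM per kb in every library.

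The heavy chain was measured against the sum of its light chains. The ratio of Slc3a2 to the summed light chains per kb was 0.585 and 0.600 with vehicle and 0.598 and 0.583 with 5D. The groups overlapped, at 0.593 ± 0.011 and 0.590 ± 0.011 (SD, n = 2 each). The ratio of Slc7a8 to Slc3a2 was 1.00 and 0.968 with vehicle and 0.898 and 0.916 with 5D, lower in both 5D libraries. These are ratios of RNA, and proteins at the membrane were not measured here. Of the other carriers, the ratio of Slc1a5 to Slc1a4 was 16.7 in both vehicle libraries and 15.8 and 12.3 with 5D, and the ratio of Slc38a1 to Slc38a2 was 0.623 and 0.613 with vehicle and 0.609 and 0.574 with 5D. Both were lower with 5D in each library, mainly in 5D replicate 2.

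**Figure D3:**
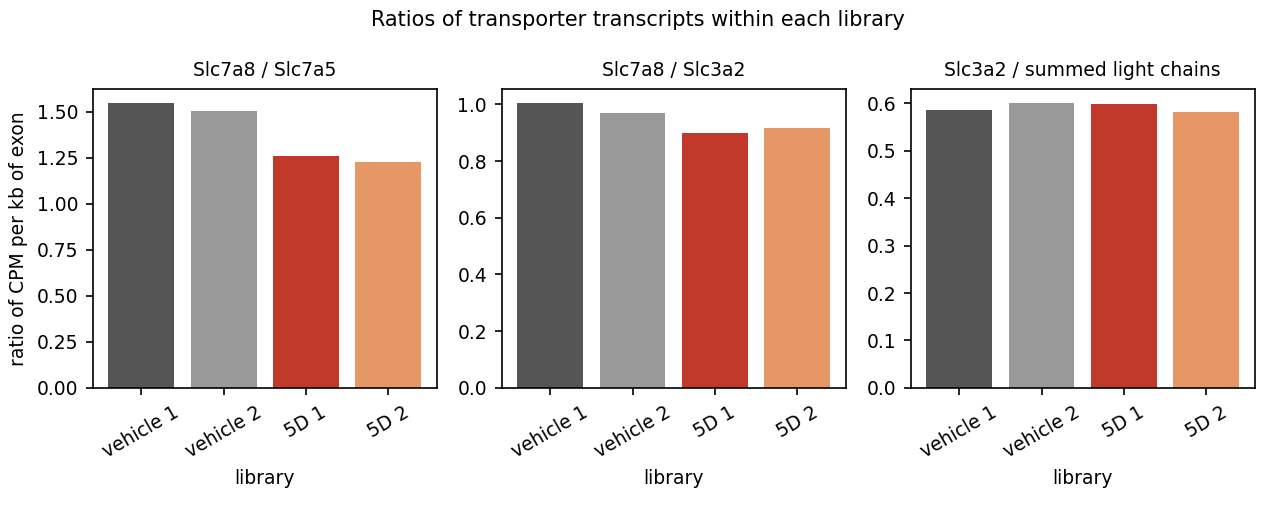
Ratios of transcript levels per kb of merged exon in each of the 4 libraries, as bars from 0, for Slc7a8 to Slc7a5, Slc7a8 to Slc3a2 and Slc3a2 to the summed CD98 light chains. The first ratio goes from 1.55 and 1.5 with vehicle to 1.26 and 1.23 with 5D, while the third stays between 0.583 and 0.600.

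By the rule of smallest distance between profiles (log2 CPM over the 4 libraries, each centred on its own mean, among 8737 genes with a mean of at least 10 CPM), the genes most like Slc7a8 were Mxd1, Tmem97 and Gadd45g. Mxd1, a partner of MAX in the MYC network, had 38.5 and 38.5 CPM with vehicle and 31.8 and 31.6 CPM with 5D, at a distance of 0.0097. Tmem97, the sigma-2 receptor, lay at 0.016 and Gadd45g, a stress-inducible gene, at 0.029. The transporter nearest to Slc7a8 was Slc3a2, at 0.13 and rank 198. The profiles nearest to Slc7a5 were those of Kmt5a, Ctbp1 and Atg4a, at distances of 0.0041, 0.0054 and 0.0067. All 3 were nearly level across the libraries, with log2 fold changes between 0.0057 and 0.013. Over 4 libraries, such likeness is a description only.

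Genes around the transporters were taken from 7 lists chosen by function, with 122 distinct genes tested. At an adjusted p under 0.05, 0 of them were called by edgeR, 0 by limma-voom, and 0 by DESeq2, which gave 97 of them an adjusted p. At an unadjusted p under 0.05, 7 were higher (5.74%, against 3.5% of all genes) and 3 were lower (2.46%, against 3.84%). Their median log2 fold change was -0.0013. With 2 libraries per group, a gene that misses the threshold is not shown to be equal in both groups.

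Of 23 other plasma membrane amino acid carriers, 17 were in the table and 15 were tested, and 0 were higher or lower at an unadjusted p, with a median log2 fold change of -0.070. Slc7a11, the cystine carrier xCT, had 5.38 and 4.65 CPM with vehicle and 3.50 and 3.78 CPM with 5D (log2 fold change -0.46, SE 0.24, edgeR adjusted p = 0.741). Slc43a2, the facilitative carrier LAT4, had 72.5 and 61.7 CPM with vehicle and 77.0 and 74.2 CPM with 5D (log2 fold change 0.17, SE 0.088, edgeR adjusted p = 0.730), and its log2 fold change ranged from 0.057 to 0.29 over the alternatives. The aromatic amino acid carrier Slc16a10 and the glycine carrier Slc6a9 had log2 fold changes of 0.38 (SE 0.22) and -0.17 (SE 0.15). Parts of the Slc7a11, Slc43a2 and Slc6a9 transcripts are near-identical to those of other genes.

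Of 8 lysosomal carriers 7 were tested, and 0 passed at an unadjusted p in either direction, with a median log2 fold change of 0.13. The libraries of the groups overlapped for each of the 7. Pqlc2, which exports cationic amino acids from the lysosome, had 11.2 and 7.60 CPM with vehicle and 12.9 and 9.37 CPM with 5D. Slc36a1, Slc38a7 and Slc15a3 had log2 fold changes of 0.26 (SE 0.26), -0.19 (SE 0.22) and 0.17 (SE 0.21). Those of Pqlc2, Slc38a7 and Slc15a3 changed sign over the alternatives, and exons of Slc15a3 overlap those of Tmem132a.

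Of 35 genes for the sensing of amino acids by mTORC1, 1 was higher and 2 were lower at an unadjusted p. Rptor, which encodes the mTORC1 subunit raptor, had 52.5 and 52.5 CPM with vehicle and 63.2 and 60.2 CPM with 5D, with a log2 fold change of 0.23 (SE 0.082, edgeR unadjusted p = 0.0152, adjusted p = 0.566). Itfg2, a subunit of the KICSTOR complex, had 23.3 and 24.7 CPM with vehicle and 19.1 and 19.2 CPM with 5D, with a log2 fold change of -0.32 (SE 0.12, edgeR unadjusted p = 0.0197, adjusted p = 0.566). Exons of Rptor, Itfg2 and Rragc overlap those of Rptoros, Nrip2 and 4930535I16Rik, so reads there cannot be assigned with certainty. The list median was 0.0067. Rragc, a Rag GTPase, and Castor1, an arginine sensor, had log2 fold changes of 0.13 (SE 0.066) and 0.14 (SE 0.077).

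The other lower gene was Rragd, another Rag GTPase, which lies below the level set for naming genes and was named after its values were seen. The vehicle libraries gave it 20 and 6 counts, and both 5D libraries 0. Set against a floor of 3 counts per library, it was at least 5.39-fold lower with 5D, where a count of 3 in each 5D library would be 0.108 CPM on average. The bound was 2.78-fold without vehicle replicate 1 and 7.99-fold without vehicle replicate 2. Its edgeR adjusted p was 0.363, and 0.00726 without vehicle replicate 2, so its call turned on that library.

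**Figure D4:**
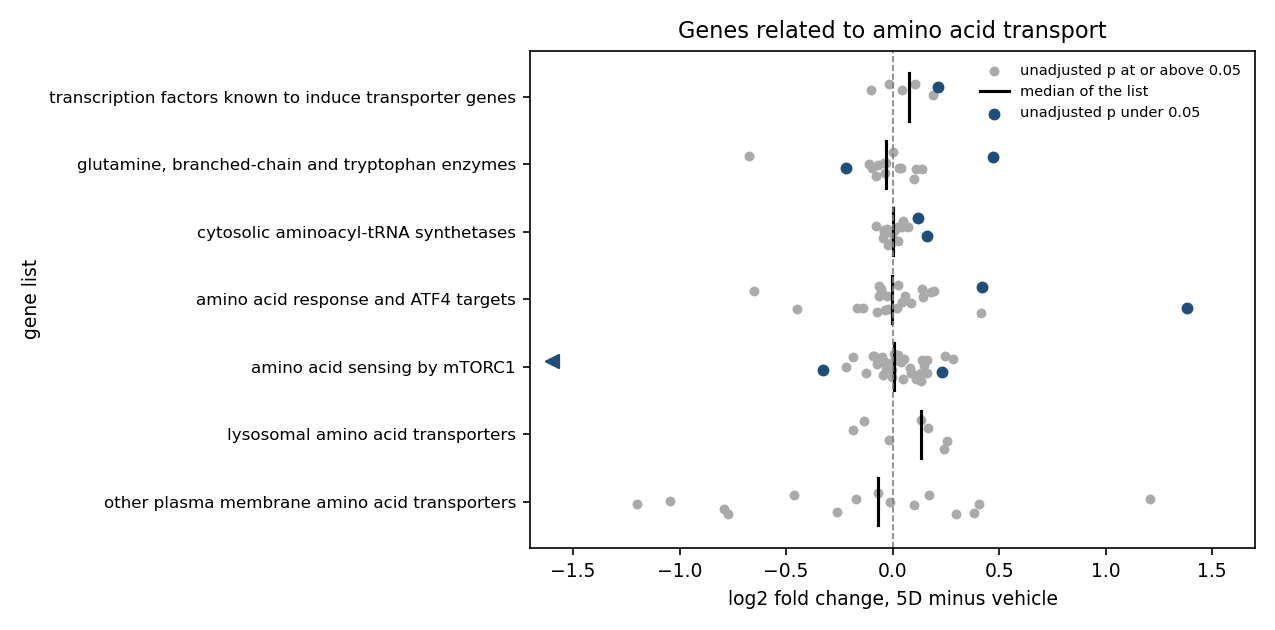
Log2 fold change of 5D minus vehicle for each tested gene of the 7 related lists, with 1 point per gene, a black line at the median of each list and blue points for an unadjusted p under 0.05. The medians lie between -0.070 and 0.13, and the arrow at the left edge is Rragd, whose fitted value lies off the axis.

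Of 24 genes of the amino acid response and ATF4 targets, 2 were higher and 0 were lower at an unadjusted p, with a median log2 fold change of -0.0016. Chac1, which degrades glutathione, had 15.9 and 15 CPM with vehicle and 19.5 and 21.9 CPM with 5D (log2 fold change 0.42, SE 0.13, edgeR adjusted p = 0.532). Vldlr, a lipoprotein receptor, had 1.03 and 0.849 CPM with vehicle and 2.14 and 2.80 CPM with 5D (log2 fold change 1.38, SE 0.39, edgeR adjusted p = 0.478), from 17 to 80 counts per library. Cth and Atf5 had log2 fold changes of -0.65 (SE 0.37) and -0.45 (SE 0.32), and exons of Atf5 overlap those of Il4i1 and Nup62.

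All 20 cytosolic aminoacyl-tRNA synthetases were tested, which load amino acids onto their tRNAs. At an unadjusted p, 2 were higher and 0 lower, with a median of -0.00026. Lars, for leucine, had 175 and 159 CPM with vehicle and 181 and 192 CPM with 5D (log2 fold change 0.16, SE 0.063, edgeR adjusted p = 0.611), and Eprs, for glutamate and proline, had 246 and 236 CPM with vehicle and 262 and 261 CPM with 5D (log2 fold change 0.12, SE 0.050, edgeR adjusted p = 0.640). Nars and Farsa had log2 fold changes of 0.072 (SE 0.045) and -0.076 (SE 0.059).

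Of 17 enzymes that use glutamine, branched-chain amino acids or tryptophan, 16 were tested, with 1 higher and 1 lower at an unadjusted p and a median of -0.033. Bcat1, the cytosolic transaminase of leucine, isoleucine and valine, had 104 and 108 CPM with vehicle and 89.9 and 92.3 CPM with 5D (log2 fold change -0.22, SE 0.066, edgeR unadjusted p = 0.00639, adjusted p = 0.520), and its exons overlap those of the antisense gene Gm26666. Gpt, an alanine transaminase, had 5.17 and 4.95 CPM with vehicle and 6.89 and 7.13 CPM with 5D (log2 fold change 0.47, SE 0.21, edgeR adjusted p = 0.652). Got1 and Bckdk had log2 fold changes of -0.11 (SE 0.062) and 0.11 (SE 0.064), and Bckdk transcripts share near-identical stretches with 21 genes.

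Of 6 transcription factors known to induce transporter genes, 1 was higher at an unadjusted p and 0 were lower, with a median of 0.075. Arnt, the partner of Ahr and of the hypoxia factors, had 42.6 and 39.1 CPM with vehicle and 46.8 and 48.0 CPM with 5D (log2 fold change 0.21, SE 0.093, edgeR adjusted p = 0.647). Atf4, which drives the amino acid response, had 319 and 315 CPM with vehicle and 324 and 330 CPM with 5D (log2 fold change 0.045, SE 0.046). Ahr and Epas1 had log2 fold changes of 0.10 (SE 0.12) and -0.10 (SE 0.099), with overlapping groups. That of Ahr changed sign over the alternatives, and exons of Ahr overlap those of Gm48236.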

How the data were processed

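RNA was measured in 2 vehicle and 2 5D libraries, grouped by the sample titles. The authors made cDNA with a low-input kit and sequenced it on an Illumina NextSeq system. The submitters' processing notes name CASAVA 1.8.2, STAR 2.6.1, Partek and the build mm10, and the annotation was GENCODE M21. The labels give an RNA input of 10 ng, whereas the study's methods give that figure in picograms. The labels speak of an overnight culture and the study of a full day with 5D. The authors deposited the estimated counts of each gene, which Partek had quantified and not yet normalized. Of these values 51.5% to 54.6% per library were whole within a tolerance of 1e-09, and all were rounded here. Every column of values was matched to a sample (0 were not), and 500 of 22554 genes were at 0 in all libraries after rounding.

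The analysis used edgeR 4.0.16, DESeq2 1.42.0 and limma 3.58.1 under R 4.3.3. The upper quartile over all genes set the normalization. After normalization, genes averaging at least 1 count and summing to at least 10 were kept (17650 tested, 4904 not). 5D was compared with vehicle by the quasi-likelihood test of edgeR, two-sided, adjusted after Benjamini and Hochberg over the 17650 genes. The biological coefficient of variation was 8.51%. With 2 libraries per group, exact permutation gives a p of 0.333 at best. Nothing in the labels says that libraries of a group came from separate animals or cultures, so p-values measure only the spread between these libraries, which may be technical. The edgeR fit also shares spread across genes (11.4 degrees of freedom), so a standard error is not a gene's own replicate spread. For Slc7a8 the SE was 0.036, while the pooled SD of its replicates was 0.0053 on the log2 scale.

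The members and lists were chosen with earlier results of these data known. The genes named are all 9 members, up to 4 genes of each related list with the smallest p and a mean of at least 1 CPM, where none was called, and the 3 genes nearest in profile to Slc7a8 and to Slc7a5. Near-identical stretches of each gene's longest transcript were searched with BLAST 2.17.0. Motifs were searched in RefSeq windows from 250 bases before to 50 after the start. Alternatives were TMM, DESeq2's size factors, limma-voom, the Wald test of DESeq2, filterByExpr, no filter, a replicate block, leaving out each library, CPM of the library total and, chosen after seeing the data, the length of the longest coding transcript. The code was tested on simulated data. Python 3.11.15 with matplotlib 3.10.9 drew the figures.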

Additional observations from a re-analysis of the deposited data

How the results depend on the processing

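With edgeR after upper quartile normalization, 5 genes were called higher and 12 lower over the whole table. TMM and DESeq2's size factors gave the same counts, and filterByExpr gave 7 and 17. DESeq2's Wald test called 17 and 43, limma-voom 9 and 23, and no filter 11 and 35. With the replicate number as a block (replicate block), 9 were called higher and 32 lower, but deviations of same-numbered libraries correlated at only 0.061 over 8737 genes, so the libraries share a number and no known pairing. Leaving out each library in turn gave 3 to 73 higher and 12 to 107 lower. The extremes came without vehicle replicate 1 (73 and 107), and vehicle replicate 2 (32 and 47) and 5D replicate 2 (3 higher) also moved a count by over 1.5 times. The cause was not tested. In these fits the lone library of a group is assumed to vary like the others. Of the related genes that a setting tested, 0 were called except without vehicle replicate 2, where 1 was, Rragd. All 122 had an adjusted p under TMM, DESeq2's size factors, limma-voom, no filter and the block, 97 under DESeq2's Wald test, 115 under filterByExpr and 119 to 121 with a library left out. Rragd had none under DESeq2's Wald test, under filterByExpr and without vehicle replicate 1. Of the 29 related genes named, Ahr, Pqlc2, Slc15a3 and Slc38a7 changed sign over the alternatives. Others with a wide range kept it, such as Slc43a2 (0.057 to 0.29), Slc36a1 (0.024 to 0.54) and Cth (-0.98 to -0.25).

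The transporters were selected on this comparison, so their calls are no measure of stability. Of the 9, 1 (Slc7a8) was called in each setting but DESeq2's Wald test and the fit without vehicle replicate 1, where 2 were (Slc7a8 and Slc3a2). Over the 11 alternatives the log2 fold change of Slc7a8 ranged from -0.29 to -0.28 and that of Slc3a2 from -0.20 to -0.14. Slc7a5, Slc7a6 and Slc38a2 changed sign when single libraries were left out. The median of all genes moved by at most 0.0096 on the log2 scale. With the longest coding transcript as length, the heavy to light chain ratio was 0.641 with vehicle and 0.643 with 5D. Counting error was largest for Slc1a4, at 0.100 with vehicle and 0.083 with 5D on the log2 scale, while its replicates were 0.0080 and 0.32 apart.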

Other observations

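Of the 270 Slc genes of the table, 237 were tested. At an unadjusted p under 0.05 in edgeR's quasi-likelihood test, 9 were lower, against 3.84% of all genes, and 7 were higher, against 3.5%. At an adjusted p under 0.05, 2 were called, Slc7a8 and Slc16a3, both lower, against 0.068% of all genes lower and 0.0283% higher. Slc7a8 was selected on this comparison, so its call is a description and not evidence about Slc genes. Slc16a3, which encodes the lactate exporter MCT4 and was named after its values were seen, had 154 and 157 CPM with vehicle and 115 and 113 CPM with 5D (log2 fold change -0.45, SE 0.059, edgeR adjusted p = 0.0240). It moves monocarboxylates and no amino acids.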
